A study of Mus musculus with 19 samples.

Results

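The 34 genes described here encode the proteins that bring fatty acids into the heart, store them, carry them into mitochondria and oxidise them. They were found by symbol in a table of 56066 genes, and all 34 were among the 14787 genes tested. The libraries were made from total RNA of whole mouse hearts, to compare a conditional knockout (cKO) of PDK1 with wild type (WT) as the heart matures after birth. There were 3 WT libraries at postnatal day 1 (P1), 3 cKO and 5 WT libraries at P7, and 3 cKO and 4 WT libraries at P21. The labels had no field for strain and gave no sex, Cre driver or floxed allele, and nothing in them ties libraries to single animals, so p-values measure only the spread between libraries, which may be technical. All P1 titles held the letter H, 2 of the P7 WT titles held the word heart and 2 of the P21 WT titles held B6, and these are called letter-code titles here. B6 is also a common short form for the C57BL/6 mouse strain, and whether title style marks a strain or colony difference is not stated. The other WT titles and all cKO titles held plain numbers, and this title style was a term of the model. Another P21 library, numbered 63, carries a cKO genotype label under a title written like those of WT, and it enters no group. The authors' deposited table averages it with P21 WT 57 and P21 WT 60 in its P21 WT mean, which treats it as WT.

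The heart lives mainly on lactate and glucose before birth and comes to rely on fatty acids afterwards. Lipoprotein lipase frees fatty acids from lipoproteins, CD36 and a fatty acid transport protein help them across the membrane, and a cytoplasmic binding protein carries them. Acyl-CoA synthetases activate them, the carnitine shuttle takes them into mitochondria, and repeated turns of beta-oxidation shorten them while passing electrons to the respiratory chain through the electron transfer flavoprotein. The name PDK1 is used both for the Pdpk1 product, an upstream kinase of AKT, and for the Pdk1 product, which restrains pyruvate dehydrogenase. The labels do not say which was deleted.

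Levels are TPM, abundances corrected for gene length and library total, divided by a median-ratio size factor of each library and called scaled TPM here. Sequencing depth cannot be read from TPM and is unknown. Size factors ranged from 0.71 to 1.219 and were lowest in P21 WT. Without them the median log2 change of all genes was 0.22 for P21 cKO minus P21 WT, -0.47 for P21 WT minus P7 WT and -0.24 for P21 cKO minus P7 cKO, so the changes below are changes relative to the median gene. Pdpk1 had 5.43 to 6.39 scaled TPM in P21 cKO, against 7.91 to 9.79 in P21 WT (log2 change -0.39 ± 0.09 SE, limma adjusted p = 0.0145). Pdk1 overlapped between these groups, at 34.7 to 43.5 and 31.1 to 37.1 scaled TPM, and whole-gene values cannot show a deleted exon. At P7 Pdpk1 overlapped too, at 7.04 to 7.47 scaled TPM in cKO and 7.15 to 9.79 in WT, and did not pass. Library P1 WT 3 had the highest level of the 3 P1 libraries for 29 of the 34 genes. Fibroblast markers summed to 1143 to 1360 scaled TPM in P21 cKO, against 894.8 to 1024 in P21 WT, and 5 of 8 rose. Endothelial markers summed to 596.7 to 619.6, against 469.4 to 545.4, and 1 of 8 rose. Cardiomyocyte markers summed to 61200 to 62180, against 63480 to 74160, and 2 of 8 fell, Tnnt2 and Ryr2 (median log2 change -0.26). Of all genes tested 4.04% rose and 5.41% fell in P21 cKO. In whole-heart RNA, fewer cardiomyocytes and less RNA per cardiomyocyte cannot be told apart, and the part of these shifts in the results at P21 was not tested.

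At P7 no difference between cKO and WT passed for any of these genes. By limma, 0 of the 34 genes rose and 0 fell, beside 3 of all genes tested (0.0203%). At an unadjusted p under 0.05 there was 1 of the 34 and 517 of all genes. The median log2 change of the 34 was 0.01, and that of all genes was 0.00. The smallest p-values belonged to Dgat2, Lpl and Cd36, with log2 changes of -0.27, 0.23 and 0.11 (adjusted p = 1 for each). Dgat2 stood at 44.0, 39.3 and 44.0 scaled TPM in P7 cKO, against 46.5, 58.2 and 52.5 in the plain-number and 37.4 and 44.9 in the letter-code P7 WT libraries. Each P7 cKO value lay below the plain-number WT values but within the range of all P7 WT values. The 95% interval of the log2 change was widest for Plin5, from -0.76 to 0.77.

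By P21 the knockout hearts had less of many messages of the mitochondrial part of the pathway. None of the uptake genes passed the test. Even so, every cKO library lay below every WT library for Fabp3 and above every WT library for Lpl. Steps were not tested against each other. Of the 34 genes 16 fell, which is set beside 5.41% of all genes tested, and 0 rose, beside 4.04%. The median log2 change was -0.41 for the 34 and 0.01 for all genes. In 21 of the 34 every P21 cKO library lay below every P21 WT library, beside 11.6% of all genes, and in 2 every cKO library lay above, beside 10.3%. Together the 34 genes summed to 13313 ± 374 scaled TPM in P21 cKO (SD, n = 3) and to 17094 ± 1037 in P21 WT (n = 4). Of these sums the uptake gene Fabp3 alone averaged 3244 and 4608. Without scaling, the 34 genes held 1.20% and 1.31% of all TPM. By step, 7 of 9 genes of the beta-oxidation spiral fell, 3 of 3 of electron transfer, 2 of 3 of the enzymes for unsaturated fatty acids, 2 of 5 of the carnitine shuttle, 1 of 2 of activation and 1 of 4 of storage. None of the 4 uptake genes, the 2 genes of malonyl-CoA control and the 2 thioesterase genes passed. In the TPM as deposited, without scaling, 8 of the 16 still fell (Acaa2, Acadm, Acads, Cpt2, Dgat2, Eci2, Etfdh and Hadh) and Lpl and Acss1 rose. Of all genes 262 fell and 2893 rose on that scale. Among plain-number libraries alone 17 fell, without P21 WT 57 there were 10, with library 63 counted as P21 cKO there were 0, and with it counted as P21 WT there were 14.

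**Figure D1:**
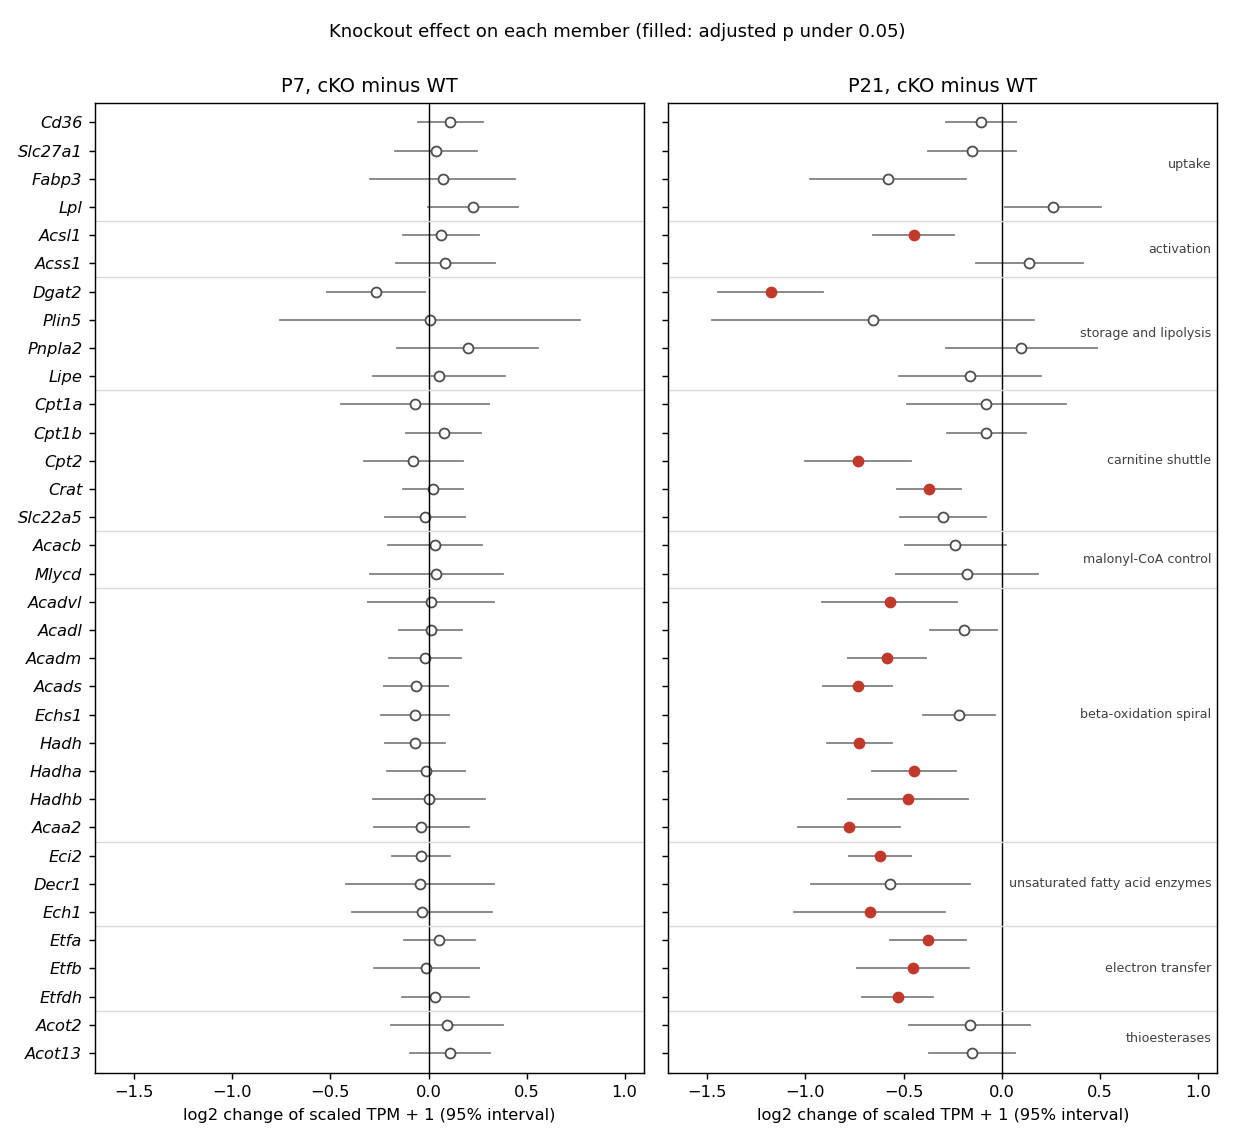
Log2 change of scaled TPM + 1 in cKO minus WT hearts for each gene, with 95% intervals, at P7 (left) and P21 (right); filled points have an adjusted p under 0.05 and faint lines divide the steps. No point is filled at P7, and 16 are filled at P21, all to the left of 0.

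The spiral removes acetyl-CoA in repeated rounds of dehydrogenation, hydration, dehydrogenation and cleavage. Acyl-CoA dehydrogenases of falling chain length open each round. Acads, the short-chain enzyme, had 88.9, 86.2 and 87.0 scaled TPM in P21 cKO, against 117.6, 131.4, 156.0 and 131.7 in P21 WT. The groups did not overlap (log2 change -0.73 ± 0.08 SE, limma adjusted p = 8.36e-05). Acadm, the medium-chain enzyme, had 495.5, 488.5 and 504.6 in P21 cKO, against 659.5, 695.9, 785.3 and 711.7 in P21 WT. It fell by 0.58 on the log2 scale, again with no overlap. The very-long-chain enzyme gene Acadvl averaged 474.3 ± 22.9 in P21 cKO and 670.1 ± 72.9 in P21 WT. Its fall of 0.57 had an adjusted p of 0.0385, and the call was lost when any of 11 libraries was left out (-0.67 to -0.49 over all 18 omissions). The long-chain enzyme gene Acadl did not pass, at 588.4 ± 29.9 in P21 cKO and 647.7 ± 60.2 in P21 WT.

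Among the later steps, Hadh, the short-chain hydroxyacyl-CoA dehydrogenase, had 259.5, 267.2 and 277.5 scaled TPM in P21 cKO, against 393.1, 416.2, 478.4 and 410.8 in P21 WT. The P21 cKO values lay within the range of the P7 libraries, which ran from 263.9 to 288.8 in P7 cKO and from 254.1 to 311.8 in P7 WT. The P21 difference was -0.73 ± 0.08 (log2 change, SE; limma adjusted p = 6.09e-05). Acaa2, the thiolase that cleaves medium-chain substrates, had 413.6, 415.4 and 393.4 in P21 cKO, against 615.7, 660.6, 765.4 and 653.4 in P21 WT. It fell by 0.78 with no overlap between the groups. Hadha and Hadhb encode the subunits of the mitochondrial trifunctional protein, which does the last 3 reactions on long chains, and they fell by 0.44 and 0.48. The call of Hadhb (adjusted p = 0.0481) was lost without any of 15 libraries (-0.54 to -0.40 over all 18 omissions), and that of Hadha without P21 WT 57 (-0.40). Echs1, the short-chain enoyl-CoA hydratase, did not pass, at 257.6 ± 12.3 in P21 cKO and 287.5 ± 13.5 in P21 WT, although every cKO value lay below every WT value.

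Double bonds need extra enzymes before a fatty acid can finish the spiral. Eci2, an enoyl-CoA isomerase gene, had 97.0, 100.7 and 99.0 scaled TPM in P21 cKO, against 145.0, 144.3, 168.2 and 144.6 in P21 WT, and fell by 0.62. Ech1, the dienoyl-CoA isomerase, averaged 630.8 ± 44.4 in P21 cKO and 966.3 ± 111 in P21 WT and fell by 0.67 (limma adjusted p = 0.0298), a call lost without P21 WT 57 (-0.59), P21 cKO 55 (-0.69), P21 cKO 59 (-0.62) or P21 cKO 64 (-0.72). Decr1, the dienoyl-CoA reductase, was lower in each P21 cKO library than in each P21 WT library, at 95.7 ± 8.11 and 135.0 ± 14.6, and did not pass (adjusted p = 0.0753). Electrons leave the dehydrogenases through a flavoprotein with subunits encoded by Etfa and Etfb, and then through the oxidoreductase encoded by Etfdh. Etfdh had 206.9, 197.2 and 191.5 scaled TPM in P21 cKO, against 292.0, 293.4, 290.0 and 268.7 in P21 WT. It fell by 0.53 (limma adjusted p = 0.00145), while Etfa fell by 0.38 and Etfb by 0.45. The call of Etfb was lost without any of 14 libraries (-0.55 to -0.39 over all 18 omissions) and that of Etfa without P21 WT 57 (-0.34) or P21 cKO 55 (-0.35).

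At the carnitine shuttle 2 of 5 genes fell, Cpt2 and Crat. Cpt1b and Cpt1a, the muscle and liver forms of the outer-membrane palmitoyltransferase that gates entry, overlapped between the groups, Cpt1b at 236.4 ± 34.1 scaled TPM in P21 cKO and 242.7 ± 18.9 in P21 WT, and Cpt1a at 17.2 ± 5.15 and 19.1 ± 2.35. Cpt2, the inner-membrane partner, had 70.2, 71.1 and 64.3 in P21 cKO, against 110.6, 122.8, 117.0 and 103.1 in P21 WT. Its fall of 0.73 had a limma adjusted p of 0.00246. Crat, the short-chain carnitine acetyltransferase, fell by 0.37. Slc22a5, the carnitine transporter of the cell membrane, was the lowest of the 34 in every group and did not pass, at 9.63 ± 0.271 in P21 cKO and 12.5 ± 1.69 in P21 WT. Acacb, which makes the malonyl-CoA that inhibits the gate, and Mlycd, which removes it, overlapped between the groups.

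**Figure D2:**
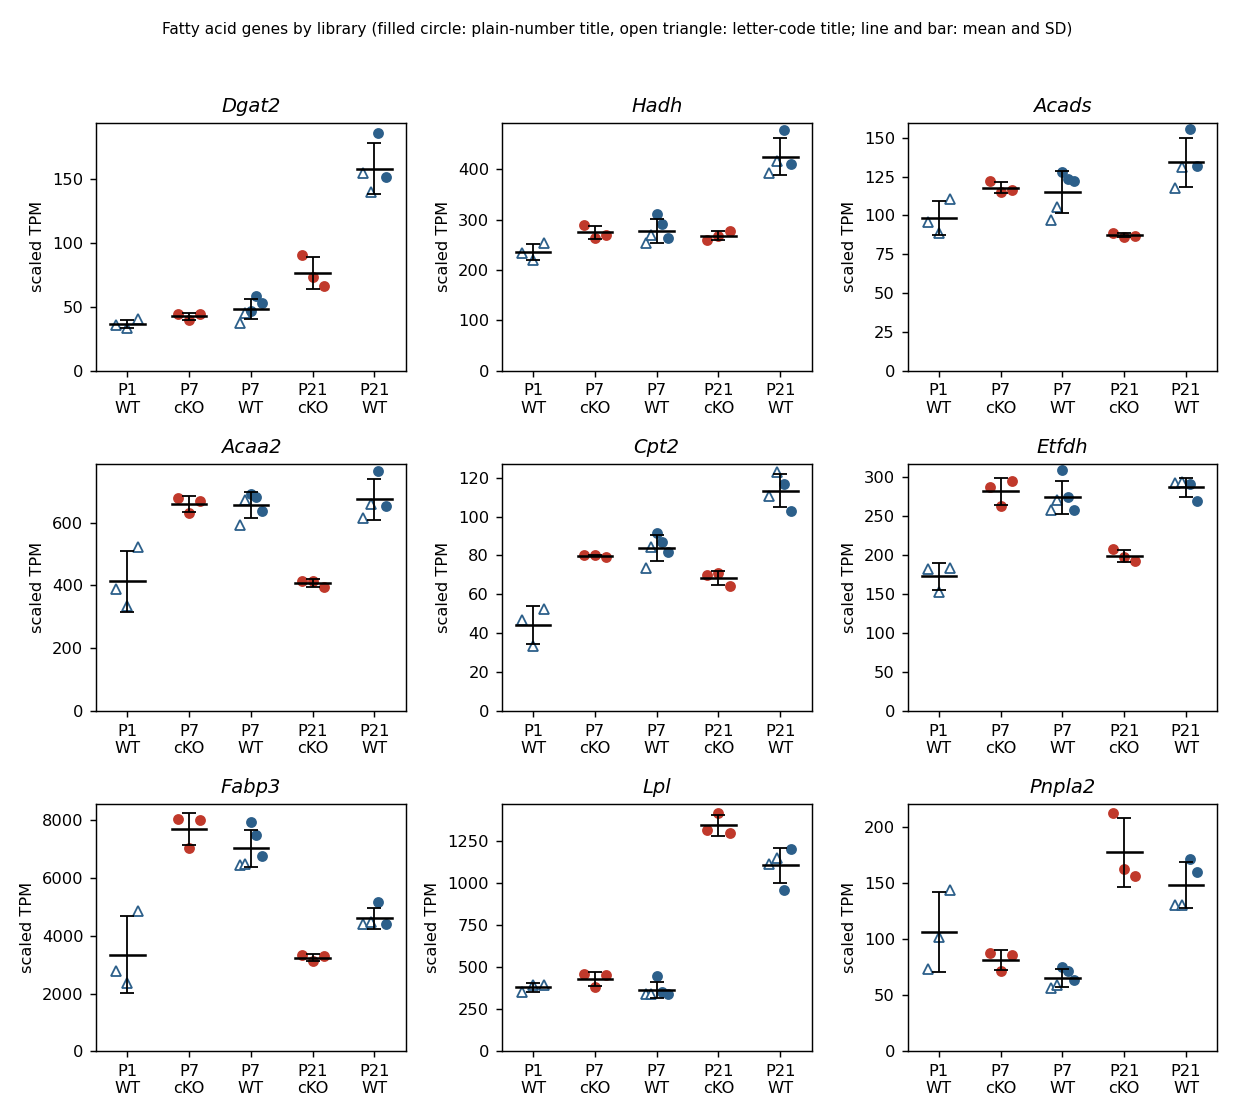
Scaled TPM of 9 genes in each library, by age and genotype, with cKO left of WT; lines and bars are the mean and SD, circles have plain-number titles and triangles letter-code titles. At P21 the cKO values of Dgat2, Hadh, Acads, Acaa2, Cpt2, Etfdh and Fabp3 lie below every WT value, those of Lpl lie above, and those of Pnpla2 overlap.

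None of the 4 uptake genes passed at P21. Fabp3, the cytoplasmic binding protein of heart muscle and the most abundant of the 34 in every group, had 3322, 3116 and 3293 scaled TPM in P21 cKO, against 4409, 4462, 5150 and 4410 in P21 WT. The groups did not overlap, but the limma test did not pass (log2 change -0.58 ± 0.19 SE, adjusted p = 0.0648). Lpl, the lipase that frees fatty acids in the capillary, had 1319, 1416 and 1300 in P21 cKO, against 1116, 1147, 959.7 and 1206 in P21 WT. Every cKO library lay above every WT library, and it did not pass either (adjusted p = 0.176), although it rose in the TPM as deposited (0.52, adjusted p = 0.00793). Cd36 and Slc27a1, the membrane uptake genes, overlapped, Cd36 at 531.9 ± 46.0 in P21 cKO and 584.0 ± 38.2 in P21 WT. Acsl1, the main long-chain acyl-CoA synthetase of the heart, had 215.8, 206.3 and 196.5 in P21 cKO, against 298.5, 288.9, 253.3 and 286.8 in P21 WT, and fell by 0.45 (limma adjusted p = 0.00921). Acss1, which activates acetate in mitochondria, lay higher in each P21 cKO library, at 163.1 ± 14.2 and 135.0 ± 10.9 in WT, without passing.

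Of the 34 genes a storage gene fell the furthest at P21. Dgat2, which makes triglyceride from diacylglycerol, had 90.2, 73.1 and 65.9 scaled TPM in P21 cKO, against 154.6, 139.5, 185.8 and 151.3 in P21 WT. No cKO value came near the lowest WT value, and the log2 change was -1.18 ± 0.13 (SE; limma adjusted p = 6.09e-05), a modelled level 0.442 times that of WT with title style as a term. The other storage genes did not pass. Plin5, a lipid droplet coat gene of oxidative tissue, averaged 34.6 ± 6.13 in P21 cKO and 55.5 ± 8.98 in P21 WT, with no overlap. Pnpla2 and Lipe, lipases that release stored fatty acids, overlapped, at 177.3 ± 30.7 and 20.4 ± 4.69 in P21 cKO and at 148.3 ± 20.8 and 22.7 ± 2.83 in P21 WT. Fat cells also express Dgat2, Lipe, Pnpla2 and Lpl, and their marker Adipoq was at 1.27, 1.92 and 0.988 scaled TPM in P21 cKO and at 0.230, 0.863, 1.76 and 0.863 in P21 WT. Of 8 adipocyte markers 3 passed the filter on low values and 0 changed, and their sum was 23.8 to 31.8 in P21 cKO and 23.2 to 46.8 in P21 WT, most of it from Cidea, which heart muscle also expresses. Ucp1 was listed at 0 in each P21 cKO library, and Cidea and Lep also averaged lower there than in P21 WT. Adipoq, Cfd, Retn, Plin1 and Cidec averaged higher in P21 cKO, all at low levels. Cidec had 0.439 to 0.612 scaled TPM in P21 cKO, above the 0.128 to 0.394 of P21 WT. The part of fat cells in the levels of these genes was not tested.

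Dgat2 lies on mm10 chromosome 7 (99153658 to 99182719, minus strand), in a stretch where other genes also differed between cKO and WT. Pold3, 899392 bases from it, and P4ha3, 1102801 bases from it, were higher in cKO by 3.17 and 7.77 on the log2 scale at P7 and by 4.09 and 9.12 at P21. Within 1500000 bases of Dgat2, 39 other genes were tested. At P21 3 of them rose and 8 fell, or 28.2%, beside 9.45% of all genes tested either way. At P7 2 rose and 0 fell, or 5.13%, beside 0.0203% of all genes tested, so Pold3 and P4ha3 were 2 of the 3 genes called at that age. The nearest that fell were Gm45012, 19647 bases away (-1.17), and Gdpd5, 198695 bases away (-0.70). These neighbours were chosen after the values were seen, and the part of the locus in the lower Dgat2 level was not tested.

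**Figure D3:**
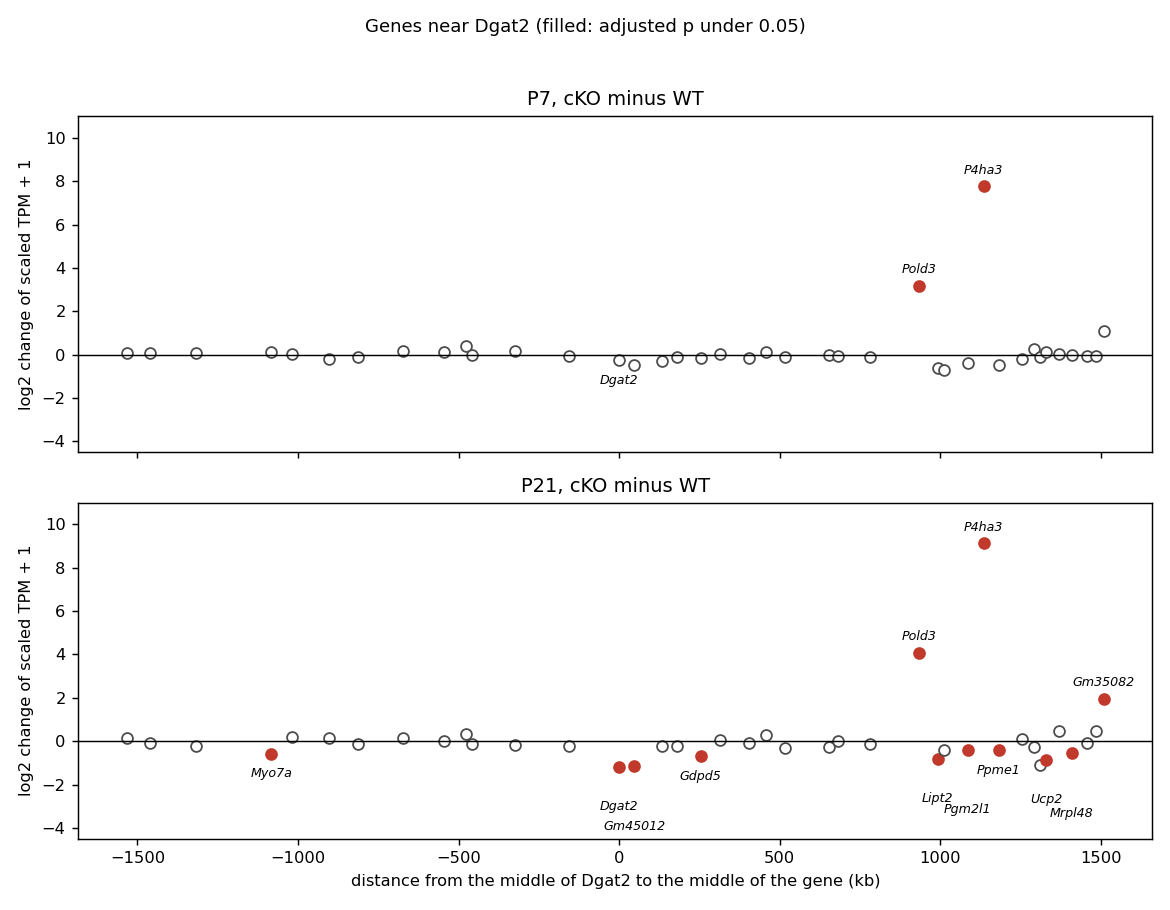
Log2 change of scaled TPM + 1 in cKO minus WT hearts at P7 (top) and P21 (bottom) for genes near Dgat2, by distance from the middle of Dgat2 in kilobases; filled points have an adjusted p under 0.05. Pold3 and P4ha3 lie far above 0 at both ages, and Dgat2 is filled only in the P21 panel, where 8 neighbours are filled below 0.

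The change in the knockout effect between P7 and P21 was tested directly as an interaction in the same model. It was negative and passed for 9 of the 34 genes, beside 1.41% of all genes, and positive for 0, beside 0.92%. These 9 were Dgat2 (-0.91 ± 0.16 SE, limma adjusted p = 0.00965), Acaa2 (-0.74), Acads (-0.67), Hadh (-0.66), Cpt2 (-0.66), Eci2 (-0.58), Acadm (-0.57), Etfdh (-0.57) and Acsl1 (-0.51). The call of Cpt2 was lost without any of 14 libraries (-0.72 to -0.60 over all 18 omissions) and that of Acsl1 without any of 12 (-0.58 to -0.48). That of Acaa2 was lost without P7 WT 1, P21 WT 3, P7 cKO 69, P7 cKO 82 or P21 cKO 64 (-0.79 to -0.69), that of Acadm without P7 WT 1, P7 cKO 69, P7 cKO 82 or P21 cKO 59 (-0.62 to -0.53), and that of Etfdh without P7 cKO 69 or P7 cKO 82 (-0.62 to -0.53). All 9 were among the 16 that fell at P21. In the TPM as deposited 4 of the 9 passed, Acaa2, Acads, Dgat2 and Hadh, on a scale where the median gene moved by 0.24. Among plain-number libraries alone 6 members passed, and the calls of Dgat2 (-0.84, adjusted p = 0.108), Acadm (-0.57), Etfdh (-0.50) and Acsl1 (-0.41) were lost. The count was 5 without P7 WT 1, 4 without P7 cKO 69 or P7 cKO 82, 18 without P1 WT 3, 0 with library 63 as P21 cKO and 9 with it as P21 WT.

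In WT hearts most of the pathway rose in the first week. From P1 to P7 25 of the 34 genes rose, beside 14.9% of all genes, and 2 fell, Echs1 and Pnpla2, beside 16%. The median log2 change was 0.49 for the 34 and -0.01 for all genes. Plin5 had 33.9 to 49.3 scaled TPM in P7 WT, against 5.31, 4.67 and 23.1 in P1 WT, and rose by 2.18. Decr1 rose by 1.21, Ech1 by 1.15, Fabp3 by 1.05 and Cpt2 by 0.91. Fabp3 had 6460 to 7919 in P7 WT, against 2795, 2367 and 4859 in P1 WT. For both Plin5 and Fabp3 the highest P1 value was that of P1 WT 3. Pnpla2 averaged 65.2 ± 8.15 in P7 WT (SD, n = 5) and 106.3 ± 35.3 in P1 WT (n = 3) and fell by 0.84, and Echs1 fell by 0.39. Among letter-code libraries alone, which hold all P1 libraries and 2 from P7, 14 rose and 1 fell. With each library left out in turn 19 to 25 rose, with 19 without P1 WT 2, 21 without P1 WT 1 and 25 without P1 WT 3.

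**Figure D4:**
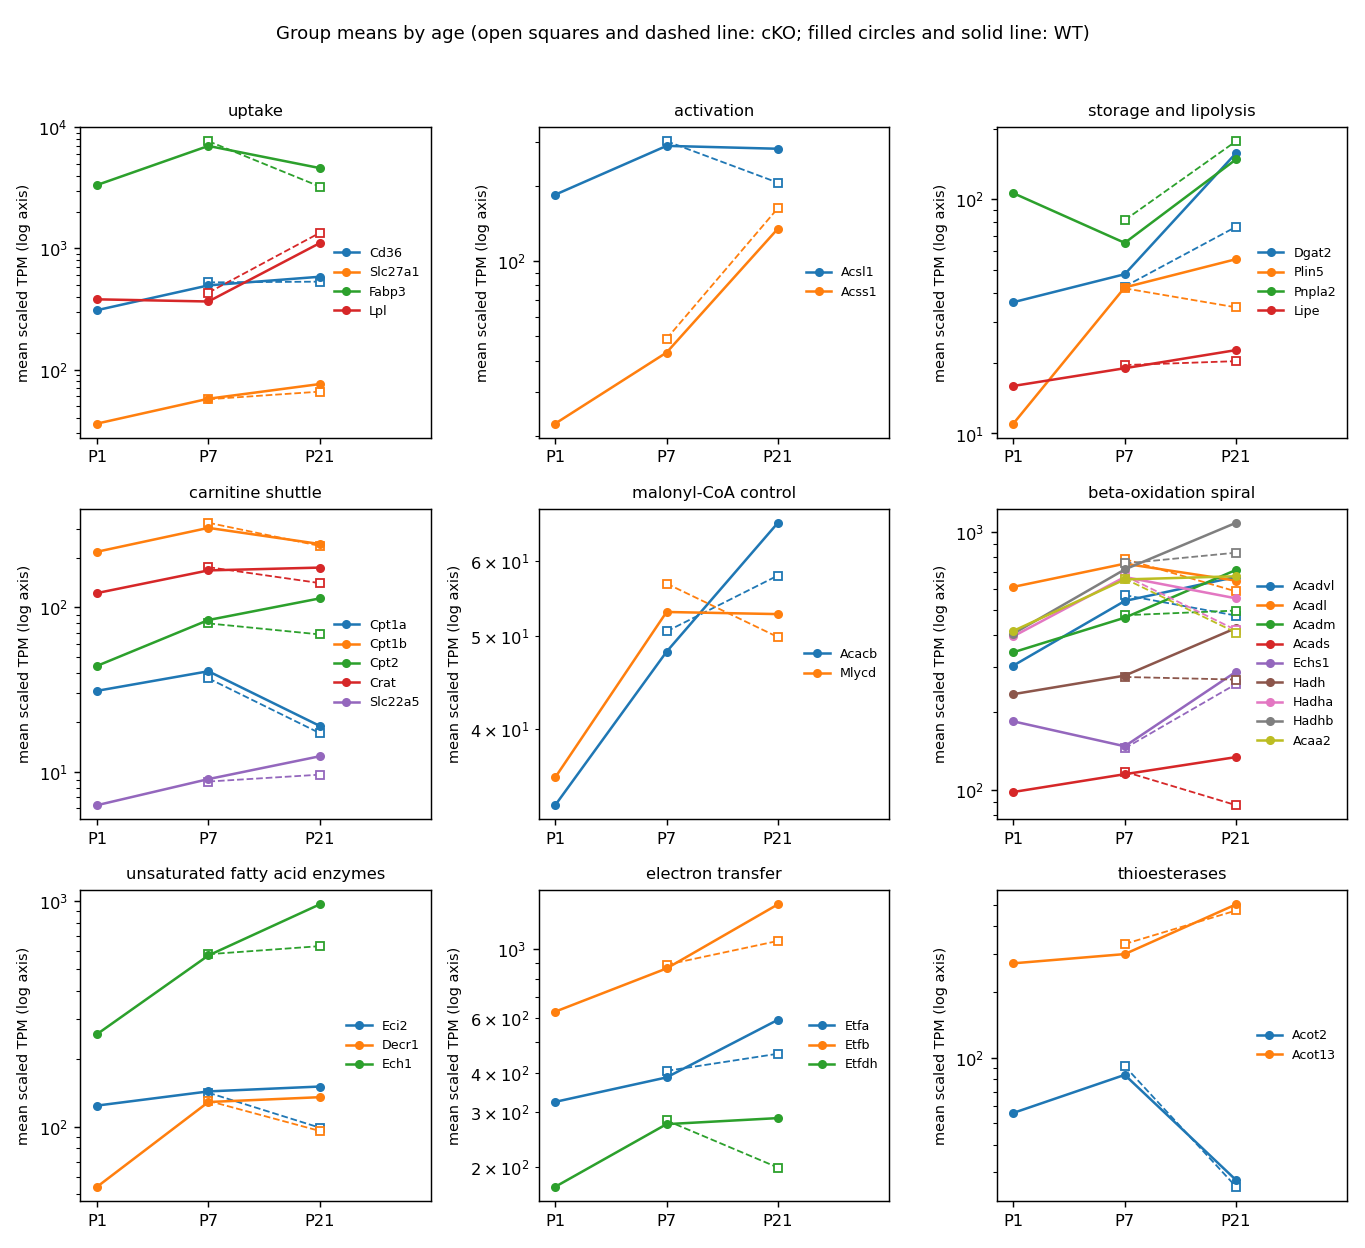
Mean scaled TPM by age on a log axis, with a panel for each step of the pathway and a colour for each gene; dashed lines with open squares are cKO and solid lines with filled circles are WT. In WT 25 genes rise from P1 to P7, and at P21 the cKO squares of the spiral, electron transfer and unsaturated fatty acid panels lie below the WT circles. Among genes that passed from P7 to P21 in WT, Acacb, Acads, Acadvl, Cd36, Cpt2, Slc22a5 and Slc27a1 turn round without scaling. Genes that did not pass there, such as Acaa2, Crat and Lipe, turn round too.

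Between P7 and P21 the genes no longer moved together in WT. On scaled TPM 19 rose and 6 fell, beside 27.5% and 27.2% of all genes. In the TPM as deposited 6 rose and 17 fell, but there 1200 of all genes rose and 9543 fell. The median log2 change of all genes on that scale was -0.47. The same 6 rose either way: Dgat2 (1.73), Acss1 (1.66), Lpl (1.61), Pnpla2 (1.20), Echs1 (0.97) and Acot13 (0.77, a thioesterase gene). The same 6 also fell either way: Acot2 (-1.55), Cpt1a (-1.08), Fabp3 (-0.59), Cpt1b (-0.32), Hadha (-0.27) and Acadl (-0.21). Calls for Acads, Acadvl and Cd36 were higher on scaled TPM and lower in the TPM as deposited. Lpl had 1116, 1147, 959.7 and 1206 scaled TPM in P21 WT, against 339.1 to 449.6 in P7 WT. Acot2, a mitochondrial thioesterase gene, had 24.3 to 29.5 in P21 WT, against 71.2 to 97.8 in P7 WT. Acot2 is uncertain because Acot1, a near-identical copy, fell with it (-2.43) and the 2 may share reads. Among letter-code libraries alone 12 rose and 2 fell.

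In cKO hearts 6 genes rose and 12 fell over the same interval, beside 19.8% and 20.2% of all genes. The 6 were the same 6 that rose in WT either way. All 6 that fell in WT fell in cKO, with Acaa2, Acads, Acsl1, Crat, Eci2 and Etfdh besides. Dgat2 rose by 0.82 in cKO and 1.73 in WT. Acaa2 had 413.6, 415.4 and 393.4 scaled TPM in P21 cKO, against 678.7, 631.2 and 667.6 in P7 cKO, and fell by 0.69. Acads fell by 0.43, Etfdh by 0.50, Eci2 by 0.51 and Acsl1 by 0.55 there. The 2 intervals share no libraries, and the difference between them is the interaction given above.

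Ratios within a library do not depend on the scaling. A pair of them, chosen after the values were seen, is given here as a description. With so few libraries no difference in either could pass after adjustment over 5 comparisons. The adjusted p-values therefore say nothing for or against a difference. The genes of the trifunctional protein subunits, Hadha (chromosome 5, 30118304 to 30155162, minus strand) and Hadhb (30155248 to 30184593, plus strand), start back to back. The 85 bases between these GENCODE gene ends are shown because the ratio of the 2 genes is described here. They are part of the 272 bases between the RefSeq start sites (30154980 for Hadha and 30155253 for Hadhb), and the letters are from RefSeq's table on GRCm38.p6, chr5:30155163-30155247, plus strand, with a GC content of 69.4% and no letters capitalised.
Hadha-Hadhb interval: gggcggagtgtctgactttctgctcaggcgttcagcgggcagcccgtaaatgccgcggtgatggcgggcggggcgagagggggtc
The Hadha level was 0.489, 0.534 and 0.484 times the Hadhb level in P21 cKO, against 0.873, 0.893 and 0.923 in P7 cKO. It was 0.536, 0.532, 0.471 and 0.509 in P21 WT, against 0.868 to 0.993 in P7 WT, with no overlap in either genotype. The WT difference of -0.427 had an exact two-sided permutation p of 0.0159, the smallest that 4 and 5 libraries can give, and 0.0794 after Benjamini-Hochberg adjustment over 5 comparisons. The cKO difference of -0.394 had an exact permutation p of 0.1, the smallest that 3 and 3 can give, and 0.25 after adjustment. At P21 cKO and WT overlapped (0.502 ± 0.0274, n = 3, and 0.512 ± 0.0301, n = 4; exact permutation p = 0.686). P1 WT libraries stood at 1.08, 1.05 and 0.852.

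Cpt1a made up 6.70% ± 0.922 of the summed Cpt1a and Cpt1b levels in P21 cKO (n = 3), against 10.2% ± 0.910 in P7 cKO (n = 3; exact permutation p = 0.1, adjusted 0.167). In WT the share was 7.29% ± 0.849 at P21 (n = 4) and 11.9% ± 1.26 at P7 (n = 5; exact permutation p = 0.0159, adjusted 0.0794). P1 WT libraries had 14.6%, 14.5% and 8.55%, the lowest being P1 WT 3. The muscle form was thus the larger part in each library. Cpt1a shares of P21 cKO and P21 WT overlapped (exact permutation p = 0.457).

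**Figure D5:**
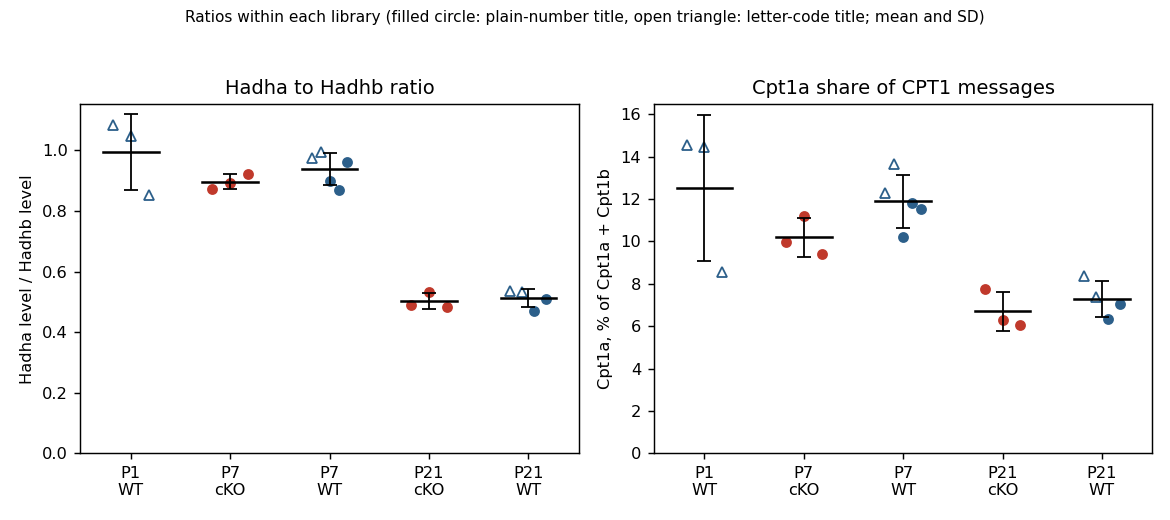
Hadha level divided by Hadhb level (left) and Cpt1a as a percentage of Cpt1a plus Cpt1b (right) in each library, with cKO left of WT at each age; lines and bars are the mean and SD. Both measures lie lower at P21 than at P7 with no overlap in either genotype, and cKO and WT overlap at P21.

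Other genes of fatty acid metabolism gave context. Their counts stand beside 5.41% of all genes tested that fell in P21 cKO and 4.04% that rose. In lists this short a count of 1 cannot be told from these shares. Of 14 other mitochondrial genes 3 fell in P21 cKO and 0 rose. Slc25a20, the carnitine-acylcarnitine carrier that works between CPT1 and CPT2, had 59.4, 62.0 and 64.8 scaled TPM in P21 cKO, against 96.5, 108.5, 106.2 and 108.2 in P21 WT (log2 change -0.79, limma adjusted p = 0.000279). Eci1, the isomerase related to Eci2, fell by 0.71, and Acsl6, a synthetase below 2 scaled TPM in every library, fell by 0.92. Of 11 peroxisomal genes tested 3 fell and 0 rose: Abcd3 (-0.57), Scp2 (-0.38) and Acaa1a (-0.34). Of 10 other storage genes 2 fell, Lpin1 (-0.53) and Dgat1 (-0.37), and of 9 other uptake genes 1 rose, Cav1 (0.33), which endothelial cells also express. Of 7 genes of fatty acid synthesis tested Me1 fell (-0.66) and Scd1 rose (0.74). Of 4 other genes known as PPAR targets 1 fell, Ucp2 (-0.85, adjusted p = 0.0462), which is also 1 of the neighbours of Dgat2.

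Genes of transcriptional regulators of this pathway are set beside it last. Of 10 regulators 0 rose and 0 fell in P21 cKO by limma, beside 4.04% and 5.41% of all genes. At an unadjusted p under 0.05 there were 2 of the 10 and 3602 of all 14787 genes. Ppara, a nuclear receptor for fatty acids, stood at 26.2, 13.8 and 15.5 scaled TPM in P21 cKO, against 13.0, 15.1, 24.2 and 12.9 in P21 WT. Esrra, an orphan receptor that drives oxidative genes, had 90.7, 90.6 and 92.5 in P21 cKO, just under the 95.6 to 103.0 of P21 WT. Esrrb, also among the 10, went the other way without passing. It had 9.51, 9.49 and 11.05 in P21 cKO, above the 5.67 to 6.75 of P21 WT. From P7 to P21 in WT 8 of the 10 rose on scaled TPM, beside 27.5% of all genes, among them Klf15 (1.91), Ppara (0.94), Ppard (0.75) and Esrra (0.43). In the TPM as deposited 2 of the 10 rose, Klf15 (1.39) and Ppara (0.42), and 2 fell, Ppargc1b (-0.73) and Rxra (-0.32). Of all genes 1200 rose and 9543 fell on that scale. Esrra turned round there without passing (-0.13). Promoter windows of 27 of the 34 genes were found in a RefSeq table on GRCm38.p6 (250 bases before to 50 after the start). The estrogen-related receptor element TNAAGGTCA was in 0 of the 27 and in 1.43% of all 27025 windows on either strand. The PPAR/RXR DR1 element was in 0 of the 27 and in 0.451% of all windows. With elements this rare, 0 of 27 cannot tell these genes from others, and sequence outside the windows was not searched. Decr1, Cpt1b, Dgat2, Acaa2, Crat, Lpl and Acot13 had no window.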

How the data were processed

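The authors deposited TPM for every gene in every library, without read counts. The submitters' processing notes name TopHat2 2.0.14, Cufflinks 2.2.1 and mm10. Which tool gave TPM, its annotation and its strand setting are not given in the sources used here. RNA iso Plus served for extraction and a SMARTER mRNA-Seq kit for the libraries, per the labels' protocols. The table also has 2 columns for ages that none of these samples have, which were left aside.

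Deposited TPM were divided by median-ratio size factors from 16318 genes above 0 in all 18 grouped libraries. The filter kept genes reaching 1 scaled TPM in 3 or more libraries. Tests ran on log2(scaled TPM + 1), a scale that understates changes of low genes. The model was fitted by limma 3.58.1 (trended eBayes) in R 4.3.3, with group and title style as terms and all 18 libraries in 1 fit. P-values are two-sided and Benjamini-Hochberg adjusted over all genes for each comparison. The threshold was an adjusted p of 0.05. The code was tested on simulated data. Library 63 was left out. Same-numbered libraries did not deviate together and no block was used, although so few libraries cannot exclude pairing.

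The members and gene lists were chosen with earlier results of these data known. Levels were named for any member, and log2 changes for members that passed or, where fewer than 3 did, for the 3 smallest p-values. The log2 change of Fabp3 at P21 was added after its value was seen. For the other lists p came from P21 cKO minus P21 WT or from P21 WT minus P7 WT. From each list up to 4 genes with the smallest p were named. Besides these, Acot1, Esrrb, Pold3, P4ha3, Gm45012, Gdpd5, Ppargc1b and Rxra were chosen after their values were seen. Marker lists covered cardiomyocytes, adipocytes, endothelial cells, fibroblasts, mural cells, macrophages and red cells. Of 6 mural markers 2 rose in P21 cKO, of 6 macrophage markers 1 fell, and of 5 red cell markers tested 0 changed. Of all genes tested 4.04% rose and 5.41% fell. Exons of 10 members overlap those of other genes on the opposite strand, each at 15.3 scaled TPM or less on average. On the same strand, exons of Cpt1b overlap those of Gm44502 (5.71 scaled TPM on average). Those of Etfb overlap Etfbl (1.8) and Mir7051 (0) on the same strand. Alternatives were TPM as deposited, a pseudocount of 0.1, a filter of 5 scaled TPM, no filter, no title style term, libraries of 1 title style, a replicate block, library 63 in either group and each library left out in turn. Positions are those of GENCODE M21 (mm10).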

Additional observations from a re-analysis of the deposited data

Results flagged for a closer look

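In 5 of 68 combinations of a gene with the P7 WT or P21 WT group, 1 library stood apart from the others of its group, and chance flags about 1 in 20. Lpl was at 449.6 scaled TPM in P7 WT 72, against 339.1 to 351.7 in the other P7 WT libraries. In P21 WT 57, Fabp3 was at 5150 against 4409 to 4462 in the other P21 WT libraries, Crat at 187.8 against 169.2 to 170.6, and Eci2 at 168.2 against 144.3 to 145.0. Etfdh was at 268.7 in P21 WT 60, against 290.0 to 293.4 in the others. P21 WT 57 held the highest P21 WT level for 22 of the 34 genes.

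The knockout effect differed between P21 and P7 for 9 genes by the limma interaction test: Dgat2 (-0.91), Acaa2 (-0.74), Acads (-0.67), Hadh (-0.66), Cpt2 (-0.66), Eci2 (-0.58), Etfdh (-0.57), Acadm (-0.57) and Acsl1 (-0.51).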

How the results depend on the processing

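Over 2671 values of single genes under other settings, 2398 kept their direction and side of the threshold, 266 lost their call and 7 turned round. These values cover only members that passed in a comparison or, where fewer than 3 did, the 3 with the smallest p. Other members that turned round, such as Acaa2, Crat and Lipe between P7 and P21 in WT, were not counted. The 7 all compare P21 WT with P7 WT in the TPM as deposited: Acacb (-0.11), Acads (-0.32), Acadvl (-0.25), Cd36 (-0.34), Cpt2 (-0.13), Slc22a5 (-0.11) and Slc27a1 (-0.17). That scale moves the median gene, and there all genes called higher and lower numbered 2893 and 262 for P21 cKO minus P21 WT, 1200 and 9543 for P21 WT minus P7 WT, 1387 and 5781 for P21 cKO minus P7 cKO, and 1043 and 77 for the interaction. Members called were 2 higher and 8 lower, 6 higher and 17 lower, 19 lower, and 4 lower in the same order. Letter-code libraries alone called 1209 and 1383 genes for P7 WT minus P1 WT (members 14 and 1), and 2210 and 2203 for P21 WT minus P7 WT (members 12 and 2), on fewer libraries. Plain-number libraries alone called 374 genes higher for P21 cKO minus P21 WT, 38 and 47 for the interaction and 2 lower at P7, where no filter gave 7 higher. With library 63 as P21 cKO, genes called were 0 higher at P7, 0 either way for P21 cKO minus P21 WT and the interaction, and members 0 in both; the cause was not tested. Leaving out 1 library gave 315 to 817 genes higher and 450 to 1178 lower for P21 cKO minus P21 WT (members 10 to 19 lower), 47 to 235 and 64 to 470 for the interaction (members 4 to 18 lower), and 0 to 2 lower at P7. The replicate block called 76 genes higher and 126 lower for the interaction, and 18 members lower at P21. Same-numbered letter-code libraries correlated at -0.1 to 0.067 in their deviations, which gave no sign of pairing. With 2 or 3 letter-code libraries in a group, these values cannot exclude it. Without each P21 WT or P7 WT library in turn, the Hadha to Hadhb difference was -0.44 to -0.41 and the Cpt1a difference -5.02 to -4.15 percentage points. The depth of the libraries is unknown, and groups of 3 to 5 libraries limit what the tests can detect.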

Other observations

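Library 63, which was placed in no group, is given as values only. The authors' deposited mean for P21 WT equals the mean of libraries 57, 60 and 63 within rounding. For 17 of the 34 genes its level lay within the range of the P21 WT libraries and for 6 within that of the P21 cKO libraries, with Cd36 in both. It lay above the P21 cKO range for 20 of the 21 genes in which every P21 cKO library was below every P21 WT library. Dgat2 was at 138.7 scaled TPM in library 63, Hadh at 407.4, Acads at 140.1, Cpt2 at 112.0, Acaa2 at 607.1, Eci2 at 140.9, Fabp3 at 4303 and Lpl at 1033.

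The 34 genes held 1.20% ± 0.00586 of all TPM in P21 cKO (SD, n = 3), against 1.31% ± 0.0600 in P21 WT (n = 4). At P7 they held 1.89% ± 0.0517 in cKO (n = 3) and 1.84% ± 0.0538 in WT (n = 5), and at P1 1.13% ± 0.184 in WT (n = 3). Transcripts of the mitochondrial genome held 20.3% ± 0.0802 of TPM in P21 cKO and 23.5% ± 0.760 in P21 WT.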
